A study of Xenopus laevis with 72 samples.

Results

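Whole embryos of the frog Xenopus laevis in which Kmt2b had been knocked down were compared directly with embryos in which Cxxc1 had been knocked down, at 6.5 hours post fertilization (hpf). The libraries were taken by their labels, the 6 Kmt2b MO and the 6 Cxxc1 MO libraries of that time point, 12 of the 72 libraries of the series. The series covers these 2 groups, embryos given a standard control morpholino (Ctrl MO) and embryos left without injection (NI Ctrl) at 5.5, 6.5 and 7.5 hpf. All embryos were wild type. Injected embryos received 9.2 nl of a 1 mM morpholino solution at the 1-cell stage and were grown at 18 °C. A morpholino is a synthetic antisense oligomer, and both knockdown morpholinos covered the start of translation of the L and S copies of their target, so that they block the protein and need not lower the mRNA. There were 2 biological replicates, each from a different frog (frog 1 and frog 2 below), with 3 libraries per group in each, and a library held the pooled total RNA of 3 embryos after removal of ribosomal RNA. The 3 libraries of a group and frog are sets of embryos of the same frog, and p-values and intervals below rest mainly on the spread between such sets.

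Methylation of lysine 4 on histone H3 (H3K4) marks promoters of active genes and, in early embryos, also promoters that are still silent. Kmt2b is a methyltransferase that places this mark, and Cxxc1 (also called Cfp1) is a subunit of another methyltransferase complex, Set1, that binds unmethylated CpG-rich DNA through a CXXC zinc finger. Kmt2b carries a zinc finger of the same kind. At 6.5 hpf the embryo has begun zygotic genome activation, when its own genes are switched on and mRNAs stored in the egg are cleared. The direct comparison asks whether loss of one protein leaves the embryo with a different set of mRNAs from loss of the other.

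The measured values were TPM (transcripts per 1000000, length-normalised shares of a library), which keep no read counts, so that the depth behind each value is unknown. After removal of entries with a tRNA name, from 18413 to 18836 genes reached 1 TPM in the 12 libraries. The 10 most abundant genes held 13.5% to 21.9% of the TPM. The share of tRNA entries before their removal was 0.316% to 0.528% in frog 1 and 2% to 4.71% in frog 2, with overlap between the knockdowns. Of the 17 entries for genes expected in the whole embryo, such as sox3, vegt and zar1, all had a mean of at least 1 TPM, and their summed TPM was 4625 to 5339 in Kmt2b MO and 4578 to 5344 in Cxxc1 MO libraries. Of 40 entries for genes of differentiated tissues, 35 had a mean under 1 TPM and 9 were at 0 in all libraries, and the sums were 27.2 to 49.6 TPM and 22.7 to 48.8 TPM. The highest were the globin entry hba-l5.L, with means of 25.1 TPM in Kmt2b MO and 24.0 TPM in Cxxc1 MO libraries, and myod1.L, at 6.31 and 6.32 TPM. These 2 entries were thus not near 0. Across genes, which are not independent replicates, Pearson's r of log2(TPM + 1) was 0.974 to 0.979 between libraries of the same knockdown and frog, 0.970 to 0.981 between libraries of different knockdowns and the same frog, and 0.920 to 0.931 between frogs. The first 2 ranges overlapped, and pairs across frogs lay below both.

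The knockdown could not be checked on its targets in these RNA values. The study reports depletion of both proteins on Western blots of knockdown embryos. The mRNA of cxxc1.S was read at 25.2, 26.9 and 23.6 TPM in the Kmt2b MO libraries of frog 1 and at 27.7, 27.0 and 26.0 TPM in the Cxxc1 MO libraries. Frog 2 gave 21.7, 19.9 and 18.7 TPM against 19.5, 19.8 and 18.7 TPM. The groups overlapped in both frogs, and the difference over both was -0.02 on the log2 scale (95% interval -0.13 to 0.09). Neither cxxc1.L nor kmt2b is analysed here.

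No gene passed the test between the knockdowns. Of the 18992 genes that averaged 1 TPM or more, 0 had a higher and 0 a lower level in Kmt2b MO than in Cxxc1 MO embryos (0% in each direction, limma on log2(TPM + 1) with the biological replicate as a covariate, 9 residual degrees of freedom, Benjamini-Hochberg adjusted p under 0.05). At an unadjusted p under 0.05, 460 genes were on the higher side (2.42%) and 160 on the lower side (0.842%) and 620 in all (3.26%). With no difference at all, a share of about 0.05 of the genes would be reached by chance, which is above the share seen in this fit. With the replicate number of the labels as a block, 959 genes were higher and 256 lower at that level. That share is over 0.05, and 0 genes passed there as well. Since no gene passed in either fit, genes and counts given below at an unadjusted p are descriptions. In whole embryos, fewer cells of a type and less RNA per cell cannot be told apart in any of these values. The lower side held repeated copies, since the 160 entries carried 121 distinct sets of values. When every library was centred on its median gene the split was 328 higher and 434 lower, and with TPM rescaled over protein-coding genes alone it was 371 and 198, so that the excess on the higher side depended on the scaling. The median difference over all genes was 0.017 (-0.0083 in frog 1 and 0.042 in frog 2).

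**Figure D1:**
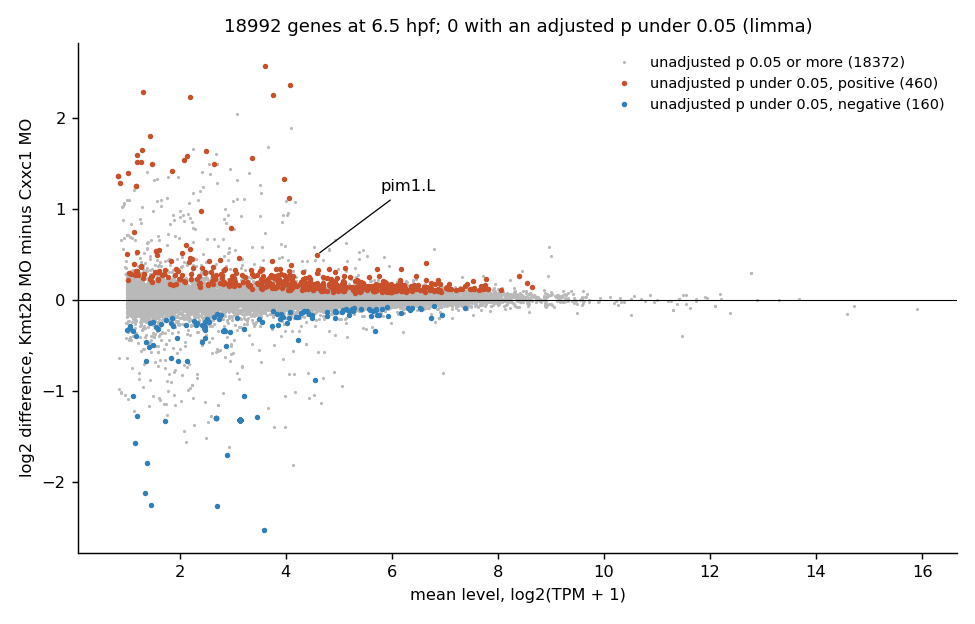
Each point is 1 of the 18992 genes, with its mean level over the 2 knockdowns on the horizontal axis, as log2(TPM + 1), and its log2 difference, Kmt2b MO minus Cxxc1 MO, on the vertical axis. Colours mark the 460 positive and 160 negative differences at an unadjusted p under 0.05. Most well-expressed genes lie near 0 and the widest differences are at low levels.

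Relative to the spread between sets of the same frog, the test bounded most differences closely. The intervals hold for the embryos of these 2 frogs. Of the 15232 genes with at least 5 TPM in either knockdown, 14907 (97.9%) had a 95% interval that lay within 1 log2 unit of 0, a 2-fold difference, and 14598 (95.8%) had one within 0.5. The median half-width of the intervals was 0.136. A gene outside these counts may differ by more, and an interval within a limit does not show that the 2 levels are equal.

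The per-frog differences did not follow each other. Across all genes tested, Pearson's r between the difference in frog 1 and that in frog 2 was -0.0094, and 48.7% of genes had the same sign. For the 15232 genes of at least 5 TPM r was 0.021, with 48.6% of the same sign. These are descriptions across genes. Genes whose 3 Kmt2b MO libraries all lay above the 3 Cxxc1 MO libraries in both frogs numbered 51 (0.269%), and genes with all libraries below numbered 11 (0.0579%). Some genes lie apart in this way by chance. Most genes named below were chosen by p from the same libraries, so that libraries lying apart is a description and no further support. Whether a gene's difference depended on the frog was tested with an interaction term, and 1 gene passed (0.00527%, limma), against 479 at an unadjusted p under 0.05 (2.52%). The gene that passed met the filter of 1 TPM only through the Cxxc1 MO libraries of frog 1 and is described below.

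The gene closest to the threshold was pim1.L (chromosome 4L, 137466268 to 137476787, assembly Xenopus laevis v10.1), which encodes a serine/threonine kinase known for promoting cell survival and growth. In frog 1 it was read at 25.8, 22.7 and 24.7 TPM in Kmt2b MO and at 18.6, 15.9 and 19.8 TPM in Cxxc1 MO libraries. Frog 2 gave 29.0, 32.1 and 30.9 TPM against 20.1, 19.2 and 21.4 TPM. All Kmt2b MO libraries lay above all Cxxc1 MO libraries. The difference was 0.49 on the log2 scale (95% interval 0.36 to 0.63), with a limma adjusted p of 0.0578, and did not pass. It was 0.41 in frog 1 and 0.58 in frog 2. This call lay at the edge, since the adjusted p was 0.0304 with the filter set to 5 TPM, 0.004 among protein-coding genes alone, 0.0312 with centred libraries, 0.0472 in the fit of 24 libraries and 0.0229 with a robust spread, and 0.0248 and 0.0256 without the libraries Kmt2b MO I.2 and Cxxc1 MO I.3. Over all 23 alternatives it ranged from 0.004 to 1, the difference from 0.41 to 0.58, and the threshold was passed in 7.

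Control embryos had less pim1.L mRNA than either knockdown. The Ctrl MO libraries read 8.69 to 11.4 TPM and the NI Ctrl libraries 9.66 to 11.5 TPM over both frogs. In the fit of 24 libraries, pim1.L was higher than in Ctrl MO by 1.35 in Kmt2b MO (limma adjusted p = 5.6e-10) and by 0.85 in Cxxc1 MO embryos (limma adjusted p = 1.69e-06). Both comparisons use the same Ctrl MO libraries. The order of the levels was thus Kmt2b MO, Cxxc1 MO and then the 2 control groups, whose ranges overlapped.

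The S copy of the gene, pim1.S (chromosome 4S, 116261910 to 116271893), was read at 11.3, 11.3 and 13.0 TPM in Kmt2b MO against 8.54, 9.81 and 9.94 TPM in Cxxc1 MO libraries of frog 1. In frog 2 it was read at 17.5, 17.9 and 18.3 TPM against 13.6, 12.9 and 13.8 TPM. The libraries did not overlap within either frog, and the difference was 0.34 (95% interval 0.22 to 0.46, limma adjusted p = 0.192). In Ctrl MO libraries pim1.S was at 5.42 to 7.60 TPM in frog 1 and 10.14 to 12.7 TPM in frog 2. Reads of such paired L and S copies, called homeologs, may be shared between them. The related kinase pim3, named after its values were seen, had libraries apart between the knockdowns for pim3.L in frog 2 only, with differences of 0.08 (95% interval -0.03 to 0.20) for pim3.L and 0.018 (95% interval -0.08 to 0.12) for pim3.S.

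The gene blcap.L (chromosome 9_10L, 38464000 to 38467397) encodes a small protein first described for its loss in bladder cancer. It was read at 60.2, 54.7 and 57.2 TPM in Kmt2b MO and at 48.2, 42.8 and 49.9 TPM in Cxxc1 MO libraries of frog 1. The values of frog 2 were 55.3, 62.4 and 62.3 TPM against 47.0, 41.7 and 46.7 TPM. All Kmt2b MO libraries lay above all Cxxc1 MO libraries, and the difference was 0.34 (95% interval 0.23 to 0.46, limma adjusted p = 0.192). Over protein-coding genes alone the limma adjusted p was 0.0257, under the threshold, and over all 23 alternatives it ranged from there to 1. Ctrl MO libraries held 25.9 to 36.2 TPM. For the homeolog blcap.S the difference was 0.11 (95% interval 0.02 to 0.19), with ranges of 81.0 to 107.1 TPM in Kmt2b MO and 74.4 to 107.2 TPM in Cxxc1 MO libraries.

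The gene adrm1.S (chromosome 9_10S, 13516933 to 13530984) encodes a ubiquitin receptor of the proteasome. Its values were 113.5, 109.0 and 108.5 TPM in Kmt2b MO and 95.3, 88.5 and 102.1 TPM in Cxxc1 MO libraries of frog 1. Frog 2 gave 101.3, 103.5 and 102.7 TPM against 89.99, 84.9 and 86.6 TPM. The libraries did not overlap within a frog, and the difference was 0.22 (95% interval 0.14 to 0.30, limma adjusted p = 0.192). Ctrl MO libraries held 74.9 to 86.3 TPM.

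**Figure D2:**
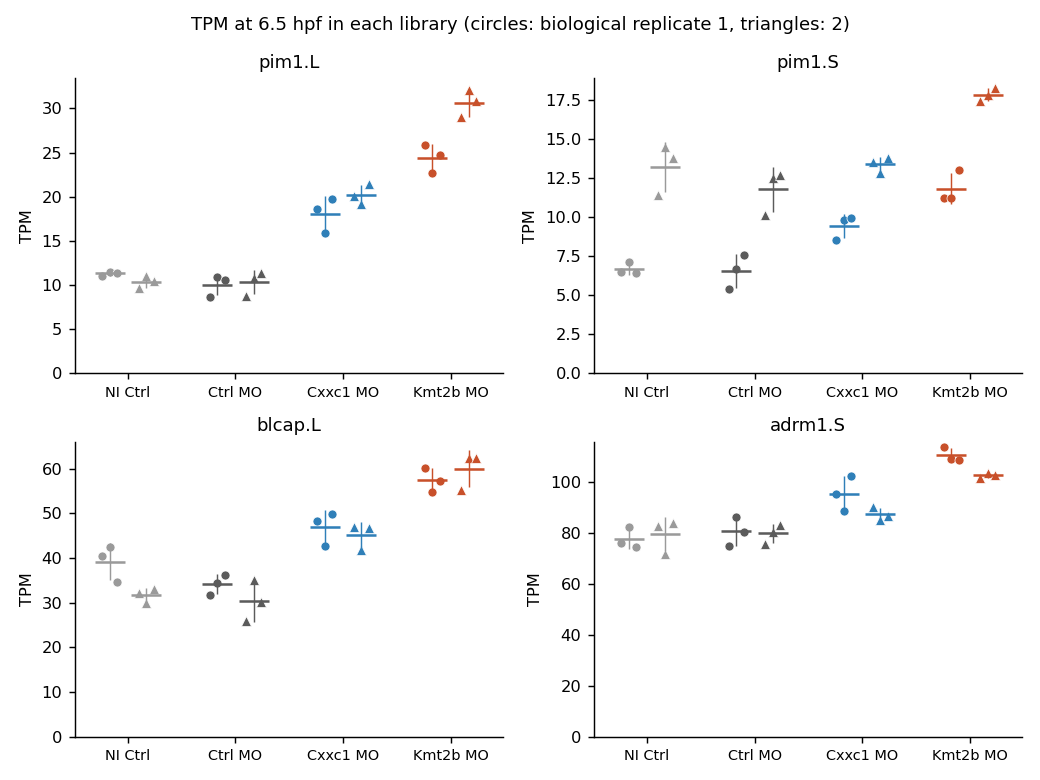
TPM of pim1.L, pim1.S, blcap.L and adrm1.S at 6.5 hpf, with 1 point per library, circles for biological replicate 1 and triangles for biological replicate 2. Horizontal bars are means and vertical lines SDs of the 3 libraries of a group and frog. In each panel the Kmt2b MO libraries lie above the Cxxc1 MO libraries of the same frog.

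The other genes of lowest p on the higher side belonged to several functions, and none passed the test. They were mcat.S, a mitochondrial fatty acid synthesis enzyme (0.29), rpl6.L and rpl6.S, a protein of the large ribosomal subunit (0.23 and 0.21), taf5l.L, a subunit of histone acetylation complexes (0.22), eif3g.L, a subunit of a translation initiation factor (0.19), and fos.S, a transcription factor of the AP-1 family (0.15). Their limma adjusted p-values lay between 0.531 and 0.881. For rpl6.L the values were 241.3, 244.4 and 237.9 TPM in Kmt2b MO and 195.2, 204.1 and 233.2 TPM in Cxxc1 MO libraries of frog 1. The libraries of frog 2 read 227.3, 237.0 and 236.4 TPM against 187.2, 181.7 and 214.3 TPM. The libraries of rpl6.L were apart in both frogs, and so were those of rpl6.S, taf5l.L and fos.S, while those of mcat.S and eif3g.L overlapped in frog 1 and were apart in frog 2.

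On the lower side the named gene of lowest p was bicdl1.L. It encodes an adaptor that links cargo to dynein and was read at 15.3, 14.8 and 15.3 TPM in Kmt2b MO and at 16.8, 17.2 and 16.8 TPM in Cxxc1 MO libraries of frog 1. In frog 2 the values were 14.5, 13.9 and 13.7 TPM against 16.9, 16.8 and 16.5 TPM. The difference was -0.20 (95% interval -0.28 to -0.11, limma adjusted p = 0.531), with all libraries apart, and Ctrl MO libraries held 14.1 to 18.0 TPM. The next genes were letm1.L, for an ion exchanger of the inner mitochondrial membrane (-0.12), ptrh2.L, for a peptidyl-tRNA hydrolase (-0.31), timm9.S, for a chaperone of mitochondrial protein import (-0.34), and ndufa6.L, for a subunit of NADH dehydrogenase (-0.17). The last of the 10 were fdx2.L, for a ferredoxin of iron-sulfur cluster synthesis (-0.14), taf15.L, for an RNA-binding protein (-0.10), ssbp1.S, for the single-strand binding protein of mitochondrial DNA (-0.17), chchd10.L, for a mitochondrial protein (-0.18), and leo1.L, for a subunit of the PAF1 elongation complex (-0.10). Each of these 9 had a limma adjusted p of 1. Libraries were apart in both frogs for letm1.L, fdx2.L and taf15.L only.

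**Figure D3:**
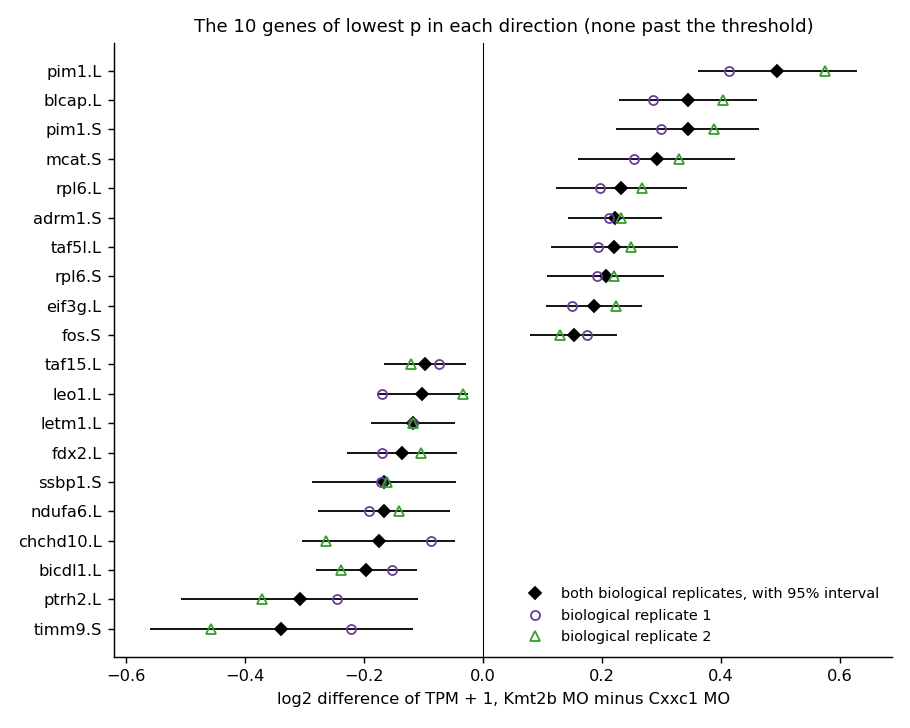
Log2 difference, Kmt2b MO minus Cxxc1 MO, of the 10 named genes with the lowest p in each direction. Diamonds with bars are the fit of both biological replicates and its 95% interval, circles and triangles the difference within biological replicates 1 and 2. The intervals leave out 0 because the genes were chosen by p, and none passed the threshold after adjustment.

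Homeologs of these 20 genes, where tested, are given for comparison. The differences were 0.21 for taf5l.S, 0.10 for adrm1.L, 0.08 for eif3g.S, 0.11 for fos.L and 0.04 for mcat.L. On the lower side they were -0.0067 for bicdl1.S, -0.015 for letm1.S and -0.013 for leo1.S, with taf15.S at -0.04 and ssbp1.L at -0.03. For 3 genes the other copy had the opposite sign, timm9.L (0.10), ndufa6.S (0.06) and fdx2.S (0.04), with intervals on both sides of 0.

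Unnamed loci gave wide differences at low levels. The unnamed locus of lowest p was LOC121401705, a small nucleolar RNA on chromosome 3L, read at 1.23, 2.93 and 2.54 TPM in Kmt2b MO and at 0, 0 and 1.13 TPM in Cxxc1 MO libraries of frog 1. In frog 2 it was read at 0.948, 2.13 and 1.33 TPM against 0 in the 3 Cxxc1 MO libraries. The libraries were apart in both frogs, with a difference of 1.28 (95% interval 0.82 to 1.74, limma adjusted p = 0.192), and Ctrl MO libraries ranged from 0 to 3.76 TPM. Its mean was 1.85 TPM in Kmt2b MO and 0.188 TPM in Cxxc1 MO libraries. It thus passed the filter of 1 TPM only through the group where it was high, and its p and interval are not independent of that choice. Others were listed at 0 in all libraries, or most, of 1 knockdown. Those at 0 in all libraries of 1 knockdown likewise passed the filter only through the other knockdown. LOC121394013, a small nucleolar RNA (chromosome 5L, 112733176 to 112733244), was listed at 0 in all 6 Cxxc1 MO libraries and at 7.19, 0, 2.61, 4.62, 10.2 and 6.29 TPM in the Kmt2b MO libraries. It was also listed at 0 in 3 of the 6 Ctrl MO libraries and in the 6 NI Ctrl libraries. LOC121394004, annotated as a guide RNA (chromosome 5L, 151918592 to 151918724), was read at 4.40 to 11.7 TPM in Kmt2b MO and at 0 in 4 of the 6 Cxxc1 MO libraries, the other two being at 4.34 and 4.26 TPM. In the opposite direction, the small nucleolar RNA LOC121398590 was listed at 0 in the 6 Kmt2b MO libraries and at 9.32, 6.61, 10.6, 0, 0 and 6.42 TPM in the Cxxc1 MO libraries. Limma adjusted p-values of these 3 were 0.352, 0.323 and 1. The lncRNA LOC121397185 was read at 2.28 to 3.08 TPM against 0.633 to 1.62 TPM in frog 1 and at 12.3 to 21.0 TPM against 8.73 to 9.37 TPM in frog 2 (log2 difference 0.80, 95% interval 0.49 to 1.0978, limma adjusted p = 0.277).

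The 1 gene whose difference depended on the frog was LOC121395852, a small nuclear RNA (chromosome 7L, 136469466 to 136469522). It was read at 8.37, 17.1 and 9.24 TPM in the Cxxc1 MO libraries of frog 1 and was listed at 0 in the other 9 libraries of the 2 knockdowns. It thus passed the filter of 1 TPM only through the Cxxc1 MO libraries of frog 1. The difference was -3.59 in frog 1 and 0 in frog 2 (interaction, limma adjusted p = 0.00179). Of the Ctrl MO libraries, 1 read 17.3 TPM and 5 were listed at 0, so that single control libraries reached the same level. The interaction was lost with a mean of at least 5 TPM and among protein-coding genes, where this locus is not tested, and with the replicate block.

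No gene of the H3K4 pathway passed the test between the knockdowns. Of 37 tested entries of H3K4 methyltransferase complexes, 0 passed and 0 had an unadjusted p under 0.05 in either direction, with a median difference of 0.0086 (range -0.09 to 0.13) beside 0.017 for all genes. The catalytic subunits setd1a.L and setd1b.L of the Set1 complexes differed by -0.03 (95% interval -0.17 to 0.12) and 0.019 (95% interval -0.11 to 0.15), and kmt2a.S by 0.03 (95% interval -0.12 to 0.19). The core subunits ash2l.L, rbbp5.S and wdr5.L differed by -0.0005, -0.03 and -0.08. The widest value was 0.13 for kmt2e.S (95% interval -0.0034 to 0.27). In the fit of 24 libraries, kmt2e.S was higher than in Ctrl MO by 0.54 in Kmt2b MO embryos (limma adjusted p = 5.55e-05). It was higher by 0.41 in Cxxc1 MO embryos (limma adjusted p = 0.00319). For wdr5.L the limma adjusted p against Ctrl MO was 0.288 in Kmt2b MO and 0.771 in Cxxc1 MO embryos. The 17 tested H3K4 demethylase entries had a median of 0.0059 and a range of -0.05 to 0.12, with kdm1b.L highest at 0.12.

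Other chromatin lists held 0 called genes as well. Their counts at an unadjusted p under 0.05 stand beside 2.42% higher and 0.842% lower of all genes tested. Of 21 tested readers and writers of CpG and DNA methylation, 0 passed at either level, with a median of 0.027, and the maintenance methyltransferase copies dnmt1.L and dnmt1.S differed by 0.05 (95% interval -0.03 to 0.13) and 0.05 (95% interval -0.03 to 0.13). Of 52 Polycomb entries 0 passed and 1 had an unadjusted p under 0.05, bap1.S, for a deubiquitinase of histone H2A, at 0.10, with a list median of 0.029. Of 32 entries for linker and replication-dependent histones and their chaperones 0 passed, and 1, h4c1.L, was on the lower side at an unadjusted p under 0.05. It encodes histone H4 and was read at 33.8 to 54.9 TPM in Kmt2b MO and 43.7 to 83.4 TPM in Cxxc1 MO libraries, which overlap, and reads may be shared with other histone H4 genes.

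**Figure D4:**
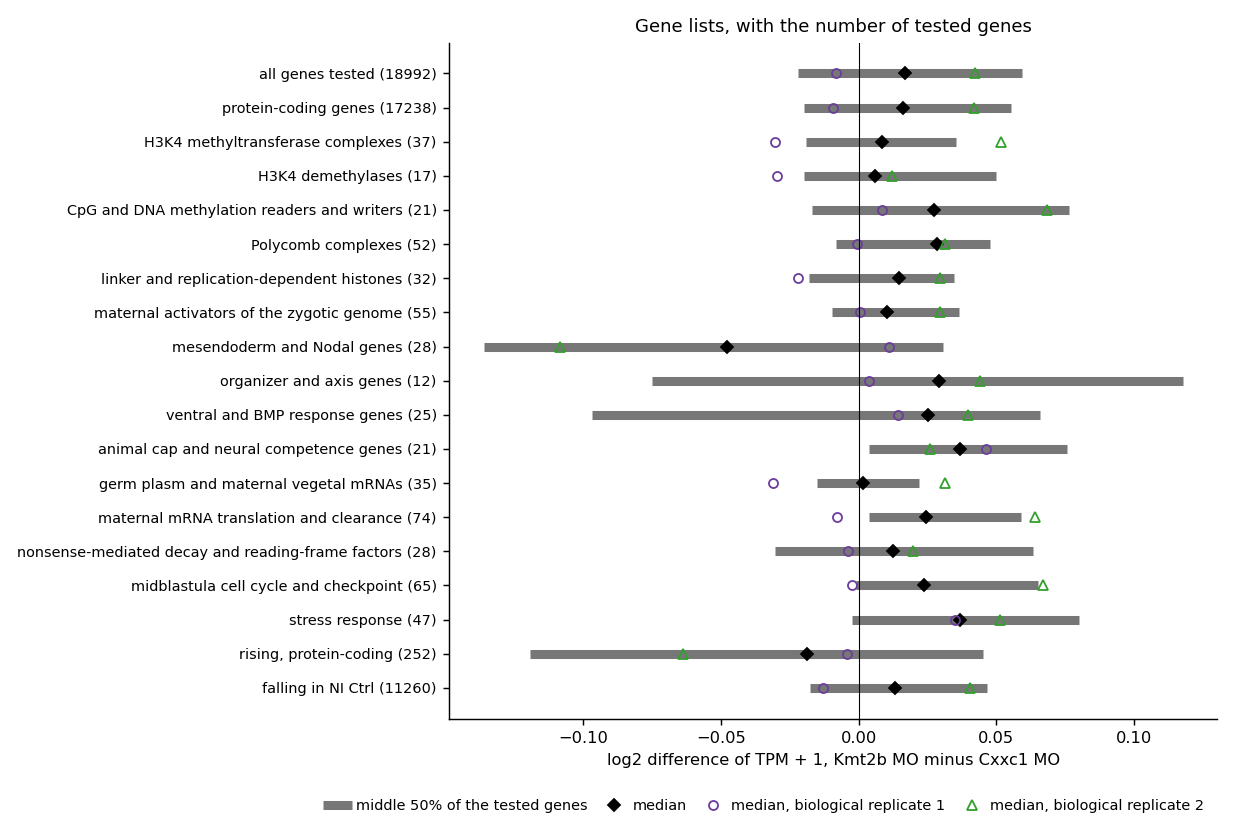
Log2 difference, Kmt2b MO minus Cxxc1 MO, for gene lists, with the number of tested genes in brackets. Bars span the middle 50% of the genes, diamonds are medians, and circles and triangles are medians within biological replicates 1 and 2. Medians range from -0.048 for mesendoderm and Nodal genes to 0.037 for animal cap and for stress response genes.

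Genes switched on at zygotic genome activation were also compared. Genes were called rising when their log2(TPM + 1) in NI Ctrl embryos was higher by at least 1 at 7.5 than at 5.5 hpf in each frog (limma adjusted p under 0.05), and falling when lower by at least 0.5. Of 252 tested rising protein-coding genes, 0 passed, at an unadjusted p under 0.05 there were 2 higher and 3 lower, and 102 (40.5%) had a positive difference, beside 62.1% of the 17238 protein-coding genes tested. Their median was -0.019 (-0.0042 in frog 1 and -0.064 in frog 2). Their mean log2(TPM + 1) per library was 3.62, 3.56 and 3.85 in Kmt2b MO and 3.72, 3.69 and 3.58 in Cxxc1 MO libraries of frog 1. The means of frog 2 were 4.22, 3.82 and 4.00 against 4.03, 4.05 and 4.15. The knockdowns overlapped in both frogs. In Ctrl MO libraries the mean was 3.86 to 3.97 in frog 1 and 4.45 to 4.72 in frog 2. Of 11260 tested falling genes 0 passed, with a median of 0.013 and 61.3% positive, beside 0.017 and 61.8% for all genes tested. At an unadjusted p under 0.05, 222 falling genes were higher and 47 lower. These counts and those of the rising genes stand beside 2.42% higher and 0.842% lower of all genes tested. Among the 17238 protein-coding genes tested, 398 were higher and 93 lower at that level.

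**Figure D5:**
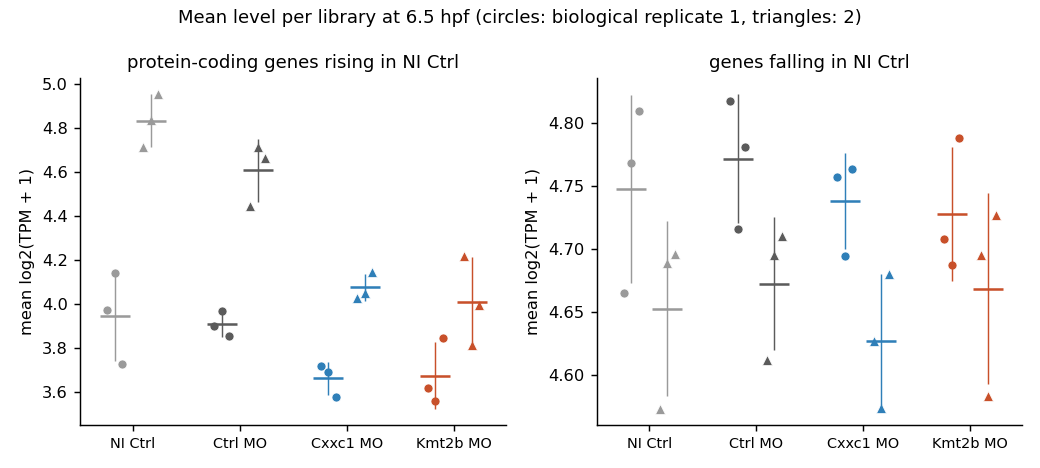
Mean log2(TPM + 1) per library at 6.5 hpf of protein-coding genes that rose (left) and of all genes that fell (right) from 5.5 to 7.5 hpf in NI Ctrl embryos, circles for biological replicate 1 and triangles for biological replicate 2, with means and SDs of 3 libraries. The vertical axes do not start at 0. The Kmt2b MO and Cxxc1 MO libraries overlap in both frogs and both panels.

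Of 313 tested rising genes that do not encode proteins, 0 passed, and 5 were higher and 40 lower at an unadjusted p under 0.05, while their median was 0.15 and 61.7% were positive. The median and the count of low p-values had opposite directions. Of all genes tested, 2.42% were higher and 0.842% lower at that level. Many such entries were small nuclear RNAs (snRNA), which form the cores of the spliceosome and are encoded in many copies that can share reads. Of 218 tested snRNA entries, 42 were lower at an unadjusted p under 0.05, but these 42 carried only 3 distinct sets of values, and all 218 carried 62.

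Genes of early patterning gave wide intervals at their low levels. Of 28 tested mesendoderm and Nodal entries, 0 passed at either level, 8 (28.6%) had a positive difference, beside 61.8% of all genes tested, and the median was -0.048, with 0.011 in frog 1 and -0.11 in frog 2. The mesendoderm homeobox gene bix1.3.L was read at 4.93, 4.52 and 4.77 TPM in Kmt2b MO and at 5.304, 5.89 and 6.00 TPM in Cxxc1 MO libraries of frog 1. In frog 2 the values were 14.2, 6.46 and 7.40 TPM against 12.3, 11.7 and 11.2 TPM. The libraries were apart in frog 1 only, and the difference was -0.30 (95% interval -0.60 to 0.0016). The Nodal ligands nodal6.L and nodal6.S differed by -0.13 and 0.20, with intervals on both sides of 0.

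Of 12 tested organizer and axis entries 0 passed. At an unadjusted p under 0.05, 2 were higher and 1 lower, beside 2.42% and 0.842% of all genes tested. The repressor gene hes4.S was read at 99.7, 68.4 and 72.6 TPM in Kmt2b MO and at 75.2, 58.3 and 62.2 TPM in Cxxc1 MO libraries of frog 1. Frog 2 gave 71.8, 84.7 and 87.8 TPM against 56.7, 56.6 and 70.6 TPM. The libraries overlapped in frog 1 but not in frog 2, and the difference was 0.34 (95% interval 0.12 to 0.57, limma adjusted p = 1). The 2 copies of the notochord homeobox gene not had opposite signs, 0.14 for not.L and -0.35 for not.S (limma adjusted p = 1 for each). The copy not.S was lower than in Ctrl MO by 1.52 on the log2 scale in Kmt2b MO (limma adjusted p = 5.87e-06) and by 1.17 in Cxxc1 MO embryos (limma adjusted p = 0.000218).

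Of 25 tested ventral and BMP response entries 0 passed, and 1 was lower at an unadjusted p under 0.05, beside 0.842% of all genes tested. That entry was ventx2.2.L, for a ventral homeobox repressor, named after its values were seen. It was read at 0.299, 0.138 and 0.198 TPM in Kmt2b MO and at 0.516, 0.407 and 0.853 TPM in Cxxc1 MO libraries of frog 1. The libraries of frog 2 read 2.13, 0.946 and 2.04 TPM against 2.201, 2.53 and 2.91 TPM. The libraries were apart in both frogs at levels near 1 TPM, and the difference was -0.40 (95% interval -0.69 to -0.11, limma adjusted p = 1). The Kmt2b MO mean of ventx2.2.L lay under 1 TPM, so that it passed the filter only through the Cxxc1 MO libraries. Its p and interval, and the count of 1 lower entry, are not independent of that choice. The more abundant homeolog ventx2.2.S overlapped in both frogs, at -0.10 (95% interval -0.62 to 0.42). Of 21 tested genes of the animal cap and neural competence, 0 passed at either level, with a median of 0.037.

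The POU factor pou5f3.2 is a gene of pluripotency. In NI Ctrl embryos at 5.5 hpf, pou5f3.2.L already had means of 53.7 TPM in frog 1 and 52.1 TPM in frog 2. There pou5f3.2.S had means of 2.12 and 5.88 TPM. The copies pou5f3.2.L and pou5f3.2.S had differences between the knockdowns of -0.0028 (95% interval -0.20 to 0.20) and -0.002 (95% interval -0.31 to 0.30). For pou5f3.2.S the values were 10.2, 8.34 and 12.6 TPM in Kmt2b MO and 11.0, 10.5 and 8.08 TPM in Cxxc1 MO libraries of frog 1. Frog 2 gave 22.4, 11.6 and 17.7 TPM against 17.2, 16.2 and 19.1 TPM. Both knockdowns lay under the Ctrl MO libraries of the same frog, at 15.2 to 17.1 TPM in frog 1 and 26.0 to 40.5 TPM in frog 2. In the fit of 24 libraries, pou5f3.2.S differed from Ctrl MO by -0.82 in each knockdown. The limma adjusted p was 0.023 in Kmt2b MO and 0.0418 in Cxxc1 MO embryos. For pou5f3.2.L the difference from Ctrl MO was -0.30 in each, with limma adjusted p of 0.11 and 0.14. The neural competence gene sox3 differed by 0.05 (95% interval -0.05 to 0.14) for the L and 0.08 (95% interval -0.03 to 0.18) for the S copy.

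Among maternal lists, 55 tested activators of the zygotic genome had 0 entries at either level and a median of 0.010, and 35 tested germ plasm and vegetal mRNAs had 0 and 0.0015. Of 74 tested genes of maternal mRNA translation and clearance 0 passed and 3 were higher at an unadjusted p under 0.05, beside 2.42% of all genes tested. These were pabpn1l.L, which binds poly(A) tails (0.18), cnot3.S, a subunit of the CCR4-NOT deadenylase (0.11), and zfp36l1.S, which recruits it to AU-rich mRNAs (0.17). The list of nonsense-mediated decay and reading-frame factors, which holds blcap and szrd1 because of earlier results of these data, had 0 of 28 past the test and 4 higher at an unadjusted p under 0.05, beside the same 2.42%. The list is not independent of these data. Besides both blcap copies these were the helicase copies upf1.S and upf1.L, at 0.25 and 0.14.

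Of 65 tested midblastula cell cycle genes 0 passed and 2 were higher at an unadjusted p under 0.05, beside 2.42% of all genes tested. The cyclin gene ccnb3.S was read at 51.4, 48.4 and 47.7 TPM in Kmt2b MO and at 47.5, 36.0 and 43.8 TPM in Cxxc1 MO libraries of frog 1. Frog 2 gave 16.0, 13.8 and 16.0 TPM against 10.8, 10.7 and 12.2 TPM. The libraries were apart in both frogs, and the difference was 0.31 (95% interval 0.16 to 0.47, limma adjusted p = 0.982). The phosphatase gene cdc25a.S, which drives entry into mitosis and S phase, differed by 0.09 in frog 1 and 0.60 in frog 2 (interaction, limma adjusted p = 1).

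Injection of a morpholino can raise stress response genes. Of 47 tested stress response entries 0 passed. At an unadjusted p under 0.05, 2 were higher, fos.S and gadd45a.S, a growth arrest gene, beside 2.42% of all genes tested. For gadd45a.S the values were 3.24, 3.87 and 3.31 TPM in Kmt2b MO and 2.25, 2.12 and 3.18 TPM in Cxxc1 MO libraries of frog 1. The libraries of frog 2 read 6.80, 9.84 and 7.98 TPM against 5.17, 5.76 and 5.43 TPM. The difference was 0.43 (95% interval 0.21 to 0.65, limma adjusted p = 0.982), with libraries apart in both frogs. Ctrl MO libraries reached 2.88 to 7.64 TPM, within the span of the 12 knockdown libraries.

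Families of the leading genes were described after the values were seen, with no test. Of 127 tested cytoplasmic ribosomal protein entries 15 were higher and 1 lower at an unadjusted p under 0.05, 72.4% were positive and the median was 0.045, beside 2.42% higher, 0.842% lower, 61.8% positive and a median of 0.017 for all genes tested. The families that follow are to be read against the same values for all genes. The mean log2(TPM + 1) of these genes was 6.36 to 6.47 in Kmt2b MO and 6.23 to 6.46 in Cxxc1 MO libraries of frog 1, and 6.46 to 6.60 against 6.43 to 6.53 in frog 2, with overlap in both. Of 76 proteasome entries 5 were higher and 2 lower, with a median of 0.015, beside 0.22 for adrm1.S. Of 93 mitochondrial ribosomal protein entries 7 were higher and 1 lower (median 0.054), of 56 NADH dehydrogenase entries 3 were higher and 1 lower (median 0.015), and of 30 mitochondrial import entries 0 were higher and 1 lower (median 0.036). Beside these medians stand -0.17 for ndufa6.L and -0.34 for timm9.S. Of 23 entries of eif3 subunits, eif3g.L alone had an unadjusted p under 0.05 (median 0.013).

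Genes that differed from Ctrl MO were then looked up in the direct comparison. In the fit of 24 libraries 458 genes (2.39% of 19137) differed from Ctrl MO in Kmt2b MO and 205 (1.07%) in Cxxc1 MO embryos (limma, adjusted p under 0.05). The counts share their control libraries, and a gene past the threshold in 1 knockdown only is not thereby shown to differ between them. Of the 441 and 197 of these genes that were also tested directly, 0 and 0 passed, and 102 and 28 had an unadjusted p under 0.05, beside 3.26% of all genes tested. Since the Kmt2b MO or Cxxc1 MO libraries helped to choose these genes, the last counts are not independent of the choice. For 439 and 195 of them the 95% interval of the direct difference lay within 1 log2 unit of 0.

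The difference at 6.5 hpf was last set against the time points around it. Of 19166 genes tested over 36 libraries, 0 had a difference at 6.5 hpf that departed from the mean of those at 5.5 and 7.5 hpf (0%, limma, adjusted p under 0.05), and 403 had an unadjusted p under 0.05 (2.1%). For pim1.L the difference was 0.29 at 5.5, 0.49 at 6.5 and 0.34 at 7.5 hpf. Its mean in frog 2 was 35.1 ± 0.742 TPM (SD, n = 3) in Kmt2b MO and 26.0 ± 0.780 TPM in Cxxc1 MO embryos at 5.5 hpf, and 18.2 ± 2.50 against 12.0 ± 2.098 TPM at 7.5 hpf. In frog 1 the means were 21.9 ± 1.66 against 19.5 ± 2.44 TPM at 5.5 hpf and 11.7 ± 2.16 against 10.6 ± 0.966 TPM at 7.5 hpf, and there the SDs overlap. For blcap.L the differences were 0.12, 0.34 and 0.53 at the 3 time points, and for adrm1.S they were 0.08, 0.22 and 0.43. A steady change over time cancels when 6.5 hpf is set against the mean of 5.5 and 7.5 hpf. The contrast could thus not detect such rises, and a trend over time was not tested. The frogs were unlike at 7.5 hpf, where blcap.L had means of 28.1 ± 6.29 (SD, n = 3) against 25.9 ± 4.78 TPM in frog 1 and 47.9 ± 1.14 against 24.4 ± 3.28 TPM in frog 2. For adrm1.S the means were 53.9 ± 4.97 against 50.8 ± 10.03 TPM in frog 1 and 86.3 ± 1.303 against 51.0 ± 7.83 TPM in frog 2. In both genes the SDs overlapped in frog 1 and were apart in frog 2, and this difference between frogs was not tested. For pim1.S the differences at the 3 time points were 0.14, 0.34 and 0.06, and for gadd45a.S -0.11, 0.43 and -0.01, with limma adjusted p of 1 for the contrast in each of these genes.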

How the data were processed

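RNA-seq of whole Xenopus laevis embryos was analysed from the TPM tables that the authors deposited, 1 per biological replicate. According to the study's methods, the authors estimated abundances with kallisto 0.48 against the Xenbase transcriptome of the v10.1 genome and passed them to gene level with tximport. TPM keeps neither counts nor depth, so the authors' DESeq2 test was not repeated. Of 39668 entries, 2256 named as tRNA were dropped (1 of them, trnau1ap.S, encodes a protein) and the TPM of each library was rescaled to 1000000. Gene kinds and coordinates came from a RefSeq table of the same assembly (38926 entries matched), and 36 names occur more than 1 time and were kept apart.

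The test covered genes that averaged 1 TPM or more across the 12 libraries and was run on log2(TPM + 1), which understates differences of low genes, using R 4.3.3 and limma 3.58.1 with an intensity trend in eBayes. The biological replicate was a covariate, adjustment followed Benjamini and Hochberg, and intervals are 95%. The replicate numbers I.1 to II.3 come from the labels. Named genes are the 10 of lowest unadjusted p in each direction with a symbol not starting with LOC, at least 5 TPM in either group and the same sign in both biological replicates, since none passed the threshold, with pou5f3.2, sox3 and cxxc1 and the 3 of lowest p in each list; homeologs, unnamed loci and others were named after their values were seen. The members and lists were chosen with earlier results of these data known. The fit was tested on simulated data. Alternatives were another pseudocount, other filters, tRNA entries kept, protein-coding genes only, centring, 24 libraries, a replicate block, a robust spread, 1 biological replicate only and leaving out each library.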

Additional observations from a re-analysis of the deposited data

Results flagged for a closer look

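Among the named genes and 5 library measures, 192 groups of 6 libraries were examined for a library far from the others, on log2 values taken relative to the mean of both knockdowns in the same frog. In 6 (3.12%) the gap of the extreme library to its neighbour, as a share of the group's range, exceeded Dixon's 95% critical value, where chance gives about 1 in 20. The gap was 0.798 of the range for eif3g.L in Kmt2b MO, where I.1 was lowest, 0.727 for smad7.L in Cxxc1 MO, where I.1 was highest, and 0.632 for kdm1b.L in Cxxc1 MO, where II.2 was lowest. The Cxxc1 MO library I.3 was the highest of its group for LOC121401705 (0.661), mcat.S (0.634) and gadd45a.S (0.629). Without this library the differences of mcat.S and gadd45a.S were the widest of those seen on leaving out 1 library, 0.34 and 0.49.

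The difference of LOC121395852 was higher in biological replicate 2 than in biological replicate 1 by 3.59 on the log2 scale, by the test of the interaction (limma adjusted p = 0.00179), which rests on 3 Cxxc1 MO libraries above 0.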

How the results depend on the processing

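The count of higher genes was 0 and became 1 with a mean of at least 5 TPM, with centring, with 24 libraries and with a robust spread (pim1.L in each) and 2 over protein-coding genes (pim1.L and blcap.L). It was 1 in biological replicate 1 only and 3 in biological replicate 2 only, where the count of lower genes was 2 and 0, all of them unnamed loci. On leaving out 1 library the count of higher genes ranged from 0 to 2, being 2 without Kmt2b MO I.2 (pim1.L and LOC121394013) and without Cxxc1 MO I.3 (pim1.L and LOC121401705), and that of lower genes stayed 0. The count of genes whose difference depended on the frog was 1 and became 5 with a pseudocount of 0.1, 2 without a filter, and 0 with the filter at 5 TPM, for protein-coding genes and with the replicate block. The count for the time point was 0 under every alternative run. With the replicate number as a block, 0 genes were higher and 0 lower, with 959 and 256 at an unadjusted p under 0.05 in place of 460 and 160. Each of the 6 libraries correlated best with its own number (r 0.026 to 0.16, over 0.1 in 2 of 6 pairs). The main fit did not use the numbers as a pairing, since r was over 0.1 in 2 of 6 pairs only, a limit set by choice. These values do not show that sets of the same number shared no variation, which was not tested. If they shared variation, p-values of the main fit may be too high and its intervals too wide. The causes were not tested. TPM gives no depth, so no limit from counting could be set for genes listed at 0, and 2 frogs limit what can be said of other clutches.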
